A study of Mus musculus with 24 samples.

Results

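The promoters described here carried a called peak of acetylated histone H3 lysine 9 (H3K9ac) in one of 2 mouse embryonic stem (ES) cell lines and not in the other. The compared lines were a G9a knockout (G9a KO, here KO) and the female parental line 16.7 Tsix +/TST (WT) from which G9a was deleted. Each line was sampled undifferentiated at day 0 and at day 10 after LIF withdrawal, which comprised 4 days in suspension and 6 days on gelatin. A promoter was taken as 1 kb either side of a gene start in mm9, and a gene was a member when it had a peak in both lists of one line (day 0 and day 10) and in neither list of the other. Of 24016 genes, 93 were marked in KO only (0.387%) and 323 in WT only (1.34%), so 416 genes are described. Each of the 4 groups, KO day 0, KO day 10, WT day 0 and WT day 10, had 1 H3K9ac chromatin immunoprecipitation (ChIP) library and 3 total RNA libraries. The KO ChIP samples carry the replicate number 2 and the WT ones the number 1. The 2 days stand in for replicates, so the member counts have no replicate error of their own. Both lines carry the Tsix +/TST alteration on one X chromosome, so WT does not mean an unmodified genome. The cells of both lines are hybrids with mus and cas alleles, though many members gave almost only mus reads in every group. The labels do not say how many KO clones were used, nor which part of G9a was removed.

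H3K9ac is placed by histone acetyltransferases around the starts of active genes and is removed by histone deacetylases. G9a, encoded by Ehmt2, works with its partner GLP, encoded by Ehmt1, to place methyl groups on the same lysine, mainly in silent euchromatic regions. An acetylated lysine 9 cannot be methylated at the same time, so the enzymes that acetylate, deacetylate, methylate and demethylate this residue act on a shared substrate. Promoters rich in CpG dinucleotides tend to carry H3K9ac widely, and CpG-poor promoters mostly carry it when the gene is transcribed.

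To show promoter DNA of both classes, 300 bases are given for members near the top of each class by the weaker of their 2 peaks that had an entry in the RefSeq promoter table (GRCm38.p6). The table matched 69 of the 93 KO-only genes and 219 of the 323 WT-only genes. Each run starts 250 bases before the gene start and ends 50 bases after it, reads 5′ to 3′ on the gene's strand, and has every CpG dinucleotide in capitals. The runs are placed on RefSeq starts, and peaks were assigned in mm9, so where a peak lies in a run cannot be read from them. For the 5 genes shown, the distance from the start to the far end of the gene differed by at most 2 bases between RefSeq and the mm9 gene table. Chchd10, which stood first, is not shown because RefSeq gives it 4621 bases, against 2162 in the gene table, so its RefSeq start may not be the one used for peaks. The first runs are KO-only promoters, with 6 and 15 CpGs.
Zfp57: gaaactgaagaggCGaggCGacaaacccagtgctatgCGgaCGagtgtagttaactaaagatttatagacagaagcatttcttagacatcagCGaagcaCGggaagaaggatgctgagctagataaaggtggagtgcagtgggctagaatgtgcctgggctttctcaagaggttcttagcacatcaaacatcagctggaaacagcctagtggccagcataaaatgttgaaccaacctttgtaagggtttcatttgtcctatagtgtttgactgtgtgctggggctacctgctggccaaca
Dnajc5g: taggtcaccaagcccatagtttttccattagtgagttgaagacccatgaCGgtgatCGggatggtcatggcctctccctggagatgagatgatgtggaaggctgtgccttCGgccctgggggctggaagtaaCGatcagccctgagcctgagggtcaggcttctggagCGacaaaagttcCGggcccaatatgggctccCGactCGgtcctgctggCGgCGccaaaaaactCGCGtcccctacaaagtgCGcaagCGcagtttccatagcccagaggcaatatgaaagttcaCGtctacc
The next 3 are WT-only promoters, with 2, 8 and 20 CpGs.
Slc35g3: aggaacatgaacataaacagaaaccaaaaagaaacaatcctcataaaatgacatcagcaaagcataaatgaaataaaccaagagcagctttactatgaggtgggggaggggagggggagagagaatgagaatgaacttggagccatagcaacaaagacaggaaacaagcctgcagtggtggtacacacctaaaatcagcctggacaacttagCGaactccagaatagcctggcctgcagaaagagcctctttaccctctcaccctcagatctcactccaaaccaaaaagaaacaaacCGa
Zfp54: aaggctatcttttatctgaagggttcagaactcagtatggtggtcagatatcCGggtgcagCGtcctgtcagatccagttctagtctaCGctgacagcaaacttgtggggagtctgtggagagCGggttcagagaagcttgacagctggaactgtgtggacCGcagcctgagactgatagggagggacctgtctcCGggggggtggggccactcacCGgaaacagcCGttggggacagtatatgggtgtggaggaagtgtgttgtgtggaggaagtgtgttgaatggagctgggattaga
Atcayos: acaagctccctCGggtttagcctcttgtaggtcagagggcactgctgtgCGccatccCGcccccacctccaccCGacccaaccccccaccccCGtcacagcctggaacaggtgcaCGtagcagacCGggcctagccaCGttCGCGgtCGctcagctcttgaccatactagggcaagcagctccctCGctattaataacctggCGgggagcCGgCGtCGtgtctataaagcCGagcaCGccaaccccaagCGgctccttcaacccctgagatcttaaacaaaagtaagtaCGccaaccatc
In GRCm38.p6 these stretches lie at chr17:37000913-37001212 and chr5:31108069-31108368 on the plus strand for the KO-only genes. The WT-only stretches lie at chr11:69761795-69762094 on the minus strand, and at chr17:21422977-21423276 and chr10:81194441-81194740 on the plus strand. Over members with a single annotated start, the median was 12 CpGs in 300 bases for 59 KO-only promoters and 15 for 180 WT-only promoters. Promoters with a peak in all 4 lists had a median of 23 CpGs (n = 4869), promoters with a peak in none had 3 (n = 5209), and all promoters had 13 (n = 14206). At least 10 CpGs were present in 61.0% of KO-only and 70.0% of WT-only promoters, against 94.4% of those marked in all 4 lists and 13% of those marked in none. Among genes whose span matched within 50 bases, a check added after seeing the data, the medians were 12 CpGs for 41 KO-only and 15 for 141 WT-only promoters. By this measure the members of both classes lay between the always-marked and the never-marked promoters.

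The RNA libraries held 2081129 to 30527844 recovered reads, and the 3 deepest were KO day 0 replicates 2 and 3 and WT day 0 replicate 3. In KO day 0 replicate 1 and WT day 10 replicate 3, olfactory and vomeronasal receptor genes, which mark sensory neurons, took 1072.1 and 1093.1 CPM computed from the recovered reads without Rn45s, against 31.1 to 376.6 in the other libraries. The 45S ribosomal RNA gene Rn45s took 0.115% to 0.129% of the reads in the 3 deepest libraries and 14.755% to 25.133% in the other 9. The total to which libraries were scaled includes Rn45s, so scaled reads of other genes are lowered in those 9 libraries next to the 3 deepest. Of the 3 deepest, 2 are KO and 1 is WT, all of day 0. Member counts are also given without the 2 libraries rich in olfactory reads. The stem cell factors Pou5f1, Nanog and Sox2 were expressed in every library, with Pou5f1 at 2747.2 to 2836.3 scaled reads in KO day 0 and 3087.6 to 3724.3 in WT day 0. At day 10 Pou5f1 lay at 1693.5 to 2253.4 scaled reads in KO and at 385.2 to 1414.3 in WT. Ehmt2 had 557.31, 440.92 and 375.39 scaled reads in KO day 0, against 986.77, 1102.26 and 1375.06 in WT day 0. At day 10 it had 499.82, 758.44 and 628.33 in KO, against 1296.92, 1358.93 and 718.57 in WT. The groups did not overlap at day 0 and overlapped at day 10, and the mean difference over both days was -1.07 on the log2 scale (SE 0.218, limma adjusted p = 0.325). It passed with DESeq2 (-1.04, adjusted p = 0.00551), and in limma without the 2 libraries rich in olfactory reads (-1.29, adjusted p = 0.0229). Reads were counted over the whole gene, so this does not show what is left of the deleted part. The Ehmt2 promoter had an H3K9ac peak in all 4 lists.

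The members' peaks were weak in both classes. Fold enrichment and q-values of peaks are the authors' own. KO-only promoters had a median fold enrichment of 2.53 in the KO day 0 list and 2.38 in the KO day 10 list, where promoters marked in all 4 lists had 3.23 and 4.42. WT-only promoters had a median of 2.54 in the WT day 0 list and 2.63 in the WT day 10 list, where promoters marked in all 4 lists had 3.05 and 4.43. The peaks were also narrow. KO-only peaks had median widths of 730 and 966 bases at day 0 and day 10, against 1565 and 2175 bases at promoters marked in all 4 lists. WT-only peaks had median widths of 940 and 845 bases, against 1976 and 2194 bases. A -log10 q of at least 2 was reached in both lists by 0 of 93 KO-only promoters and by 1 of 323 WT-only promoters, the small nucleolar RNA gene Snord19. It was reached in at least 1 list by 8 KO-only and 13 WT-only promoters.

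**Figure D1:**
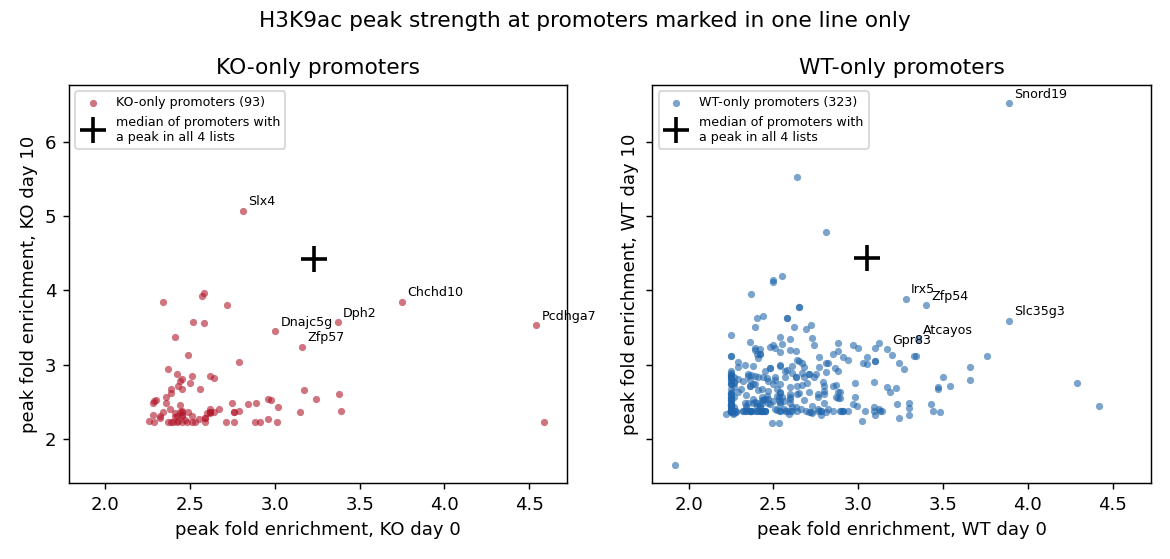
Fold enrichment of the strongest H3K9ac peak at each member promoter in the day 0 list (x axis) and the day 10 list (y axis) of its own line, for 93 KO-only promoters (left) and 323 WT-only promoters (right); the cross marks the median of promoters with a peak in all 4 lists. Most points sit below and left of the cross, and the labelled members are those with the highest weaker peak.

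The lists differ in what they hold. The KO day 0 list has 37704 peaks and the KO day 10 list 51501, against 63050 in WT day 0 and 37310 in WT day 10. Peaks with a -log10 q of at least 2 made up 7.77% of the KO day 0 list and 12.44% of the KO day 10 list, against 2.88% of the WT day 0 list and 17.92% of the WT day 10 list. The longest list thus had the smallest share of such peaks. A peak in both day 10 lists and in no day 0 list was found at 800 promoters, and a peak in both day 0 lists only at 142. One list of each line, from different days, marked 475 promoters. All 4 lists marked 7946 promoters, and none marked 8766. With 1 ChIP library per group no test of these counts is possible.

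Membership was counted again with other peak rules. When only peaks with a -log10 q of at least 2 were used, 70 promoters were KO-only and 38 WT-only, and they shared 0 and 1 genes with the members above. With peaks of at least 4-fold enrichment the counts were 60 and 42, with 0 genes shared in either class. These overlaps follow from the members' own peaks, since the highest weaker peak was 3.75-fold in KO-only and 3.89-fold in WT-only promoters. The promoter width mattered less: 91 and 298 genes were found with 500 bases either side (68 and 251 shared), and 136 and 377 with 2 kb (77 and 263 shared). Cutting each list to its 37310 peaks with the lowest p-values gave 102 KO-only and 275 WT-only promoters, of which 76 and 246 were members above. Leaving out 1 of the 4 lists removes a condition, so the counts can only stay or grow; it gave between 240 and 885 KO-only promoters and between 495 and 2021 WT-only promoters. The lowest KO-only count came without the WT day 0 list, and the highest WT-only count came without the KO day 10 list.

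In the other line a peak lay within 2 kb of the gene start at 16 KO-only and 60 WT-only promoters, while 52 KO-only and 201 WT-only promoters had none within 5 kb. The strongest peaks of the 2 days overlapped each other at 72 of 93 KO-only promoters (77.42%) and 263 of 323 WT-only promoters (81.42%), against 98.91% and 99.14% for the KO and WT peaks of promoters marked in all 4 lists. The gene start itself was covered in both lists at 20 KO-only and 101 WT-only promoters. Just inside the 1 kb limit, the farther peak lay 984 bases from the start of Hoxd11, 980 from Krt42 and 976 from Pacsin1 among KO-only genes, and 998 from Snord19, 985 from Ina and 975 from Sorbs3 among WT-only genes. Just outside it were Olfr543 at 1003, 1700018B08Rik at 1015 and Tbx3os2 at 1021 bases on the KO side. On the WT side these were Pla2g10os at 1003, 2210019I11Rik at 1005 and Draxin at 1014 bases. Some members share 1 peak, such as Ptgs2 with its antisense neighbour Ptgs2os and Sox8 with 2810468N07Rik; 4 KO-only and 18 WT-only genes did so.

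Among the KO-only promoters the strongest pair of peaks belonged to Chchd10, which encodes a protein of the mitochondrial intermembrane space (mm9 chr10:75398318-75400479, plus strand). Its peaks had fold enrichments of 3.75 at day 0 and 3.85 at day 10 and began 512 and 441 bases downstream of the start; the day 0 peak ran past the end of the gene and the day 10 peak ended inside it. The nearest WT peaks lay 2498 and 2589 bases from the start. Next were Pcdhga7, a clustered gamma protocadherin of neuronal surfaces (4.54 and 3.53), Dph2, an enzyme of diphthamide synthesis on elongation factor 2 (3.37 and 3.57), Zfp57 (3.16 and 3.24), the J-domain gene Dnajc5g (3.00 and 3.45) and Slx4, a scaffold of DNA repair nucleases (2.81 and 5.07). At Slx4 the peaks lay 862 and 935 bases upstream of the start, and the nearest WT peak was 1396 bases away.

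Zfp57 encodes a KRAB zinc finger protein that keeps DNA methylation at imprinted regions in ES cells and early embryos. The gene lies at mm9 chr17:37138108-37147674 on the plus strand. Its KO peaks began 347 bases into the gene at day 0 and 434 bases into it at day 10. WT peaks came as close as 1453 bases at day 0 and 1464 bases at day 10, so a wider window of 2 kb would not have called it KO-only. Zfp57 had 1755.98, 3249.91 and 3322.04 scaled reads in KO day 0, against 2100.86, 1678.44 and 4543.58 in WT day 0, and the groups overlapped. The day 10 libraries gave 682.29, 955.57 and 671.48 in KO, against 352.02, 539.45 and 224.19 in WT, with every KO library above every WT library. The day 10 difference was 1.12 on the log2 scale (SE 0.413, limma adjusted p = 0.307) and did not pass the threshold. Genes of naive pluripotency were on the same side at day 10, with 28 of 28 listed genes above 0 and a median log2 difference of 1.11. Nanog lay at 1647.7 to 2209.6 scaled reads in KO day 10 and 764.6 to 1049.9 in WT day 10, and Sox2 at 857.6 to 1407.4 and 215.6 to 660.8. Their part in the Zfp57 result was not tested.

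Genes named Zfp or Zim, mostly zinc finger transcription factors, made up 7 of 93 KO-only genes (7.53%), 3 of 323 WT-only genes (0.929%) and 1.52% of all genes. The KO-only ones were Zfp11, Zfp114, Zfp128, Zfp455, Zfp57, Zfp61 and Zim3. This grouping by gene name was made after the members had been seen and carries no test. All 7 passed the expression filter, and 2 of them, Zfp57 and Zfp61, had a log2 difference above 0 over both days. Their median was -0.67, and Zfp455 had the lowest value at -1.07 (SE 0.67, limma adjusted p = 0.791). Of all genes named Zfp or Zim, 202 of 363 tested were above 0, with a median of 0.05, and 42.3% of all genes tested were above 0.

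Among WT-only promoters, Snord19 had the highest weaker peak (3.89 at day 0 and 6.52 at day 10), but its start lay 910 and 998 bases from those peaks and a KO peak lay 1156 bases away. The solute carrier gene Slc35g3 followed with 3.89 and 3.59, then Zfp54, a zinc finger gene, with 3.40 and 3.80, and the noncoding Atcayos with 3.35 and 3.34. The zinc finger gene Zfp54 (mm9 chr17:21560191-21572348, plus strand) had peaks over its start on both days and no KO peak within 5 kb. It had 37.36, 55.36 and 62.63 scaled reads in KO day 0, against 35.37, 33.40 and 57.78 in WT day 0. Its day 10 values were 15.87, 30.12 and 32.36 in KO, against 37.05, 45.30 and 48.86 in WT. The groups overlapped at day 0 and were apart at day 10, where the difference was -0.78 on the log2 scale (SE 0.523, limma adjusted p = 0.574).

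Homeobox genes, which encode transcription factors of body patterning, made up 14 of 323 WT-only genes (4.33%), against 1.09% of all genes, and comprised Cdx1, Dlx1, Dlx2, Dux, Esx1, Hoxa3, Irx1, Irx5, Nkx2-5, Nkx6-1, Pdx1, Pitx3, Pou4f2 and Six2. T-box genes (Tbr1, Tbx18 and Tbx21) and forkhead genes (Foxb2, Foxc2 and Foxf1) gave 3 members each, 0.929% per family, against 0.0958% and 0.192% of all genes. Among KO-only genes there was 1 homeobox gene, Hoxd11 (1.08%), and no T-box or forkhead gene. Sox genes gave 1 member in each class, Sox21 in KO-only (1.08%) and Sox8 in WT-only (0.31%), against 0.0791% of all genes. These families too were drawn up after the members had been seen and carry no test. They were not counted among promoters with other partial patterns, meaning a peak in some lists but in neither class. Such patterns held 30 of 39 Hox genes and 15 of 19 listed mesoderm genes. The family shares therefore cannot be called particular to WT-only promoters. In expression 6 of the 14 homeobox genes had a log2 difference above 0 over both days, with a median of -0.09; of all homeobox genes tested 136 of 244 were above 0, with a median of 0.14. The median over all genes tested was -0.09. Of the 3 WT-only T-box genes 1 was above 0, with a median of -1.56, against 10 of 23 and -0.07 over all T-box genes.

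Foxf1, a forkhead factor of the splanchnic mesoderm, had WT-only peaks and more reads in the KO libraries of day 10. Its promoter had WT peaks of 2.77-fold and 2.97-fold enrichment and no KO peak closer than 1859 bases. In differentiated cells it had 349.08, 353.21 and 461.14 scaled reads in KO, against 18.53, 222.37 and 221.32 in WT, so every KO library was above every WT library. The difference was 1.96 on the log2 scale (SE 1.177, limma adjusted p = 0.511). At day 0 it had 0, 1.95 and 7.42 in KO, against 0, 20.88 and 1.99 in WT. The sum of muscle marker genes also stood apart at day 10: the 16 genes of that list summed to 2487.2 to 6752.0 scaled reads in KO and 1632.8 to 2368.4 in WT, with 1 gene at 0 in each group. Only 10 of the 16 had a log2 difference above 0 at day 10 (median 0.49), and 0 passed an adjusted p under 0.05 in limma. The 19 mesoderm genes, Foxf1 among them, summed to 4363.5 to 6224.0 in KO and 1667.5 to 5859.9 in WT, and 0 of them were at 0 in either group. Of these 19, 17 had a log2 difference above 0 at day 10 (median 0.71), and 0 passed an adjusted p under 0.05 in limma. The part of the muscle and mesoderm genes in the Foxf1 result was not tested. In these bulk samples, a change in the number of cells of a type and a change in RNA per cell cannot be told apart.

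Lists of genes drawn up from the biology of ES cells and differentiation held members in small numbers. Over all genes 0.387% were KO-only and 1.34% WT-only, so in lists this short a single member exceeds these shares. The number of members per list was not tested. Dppa3, a maternal factor that protects DNA methylation, and Tfcp2l1, a transcription factor of naive pluripotency, were WT-only out of 28 naive pluripotency genes, 15 of which were marked in all 4 lists. All 28 had a log2 difference above 0 at day 10 (median 1.11) and for the mean of both days (median 0.63), and none passed an adjusted p under 0.05 in limma. Dppa3 had 165.01, 307.41 and 317.29 scaled reads in KO day 0, against 219.28, 179.53 and 223.72 in WT day 0, which overlapped. It had 523.62, 260.11 and 172.59 in KO day 10, against 213.07, 152.36 and 97.73 in WT day 10, again overlapping. Tfcp2l1 had 3518.18, 5126.91 and 4824.41 in KO day 0, against 3462.52, 7523.77 and 6889.80 in WT day 0. In differentiated cells it had 1416.16, 1024.02 and 898.00 in KO, against 1266.04, 846.24 and 454.14 in WT, and the ranges overlapped on both days. Both genes therefore lacked a called promoter peak in KO while their RNA ranges overlapped those of WT. Of 58 protocadherin genes, Pcdhga7 and Pcdhgb1 were KO-only; the gamma genes share exons, so their reads could not be assigned to 1 gene with certainty. Lama1, the laminin alpha chain of early basement membrane, was the only KO-only gene among 17 endoderm genes. Of 16 genes in the H3K9 methylation list 11 were marked in all 4 lists, as were 8 of 9 in the H3K9 demethylation list and 14 of 20 in the H3K9 acetylation list. None of these 3 lists held a member, which in lists this short is close to the shares over all genes. None of their genes passed an adjusted p under 0.05 in limma in any of the 3 comparisons.

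The members were then related to expression, which the peaks did not choose. RNA values are reads per gene brought to one total per library by the authors, tested as log2(value + 1) with limma over all genes, and a member entered when it exceeded 1 in at least 3 libraries. That left 86 of 93 KO-only and 309 of 323 WT-only genes. At an adjusted p under 0.05, limma called 0 members at day 0, 0 at day 10 and 0 for the mean of both days, where it called 0%, 0% and 0.0097% of all 20624 genes. With edgeR on recovered reads there were also 0 calls among members for the mean of both days, and DESeq2 called 1 KO-only and 3 WT-only genes (1.33% of 75 and 1.26% of 238 with an adjusted p), against 0.582% of all 15987. The DESeq2 calls for the mean were Hoxd11 (2.42 on the log2 scale, DESeq2 adjusted p = 0.0176), 1700030C10Rik (-2.17, adjusted p = 0.000689), Sorbs3 (-1.37, adjusted p = 0.00408) and Adm (-2.22, adjusted p = 0.0367). On single days DESeq2 called 0 KO-only and 1 WT-only gene at day 0 (0% and 0.386%, against 0.0949% of all genes) and 2 KO-only and 8 WT-only genes at day 10 (2.56% and 3.09%, against 3.25% of all genes). The day 10 shares of members were thus no higher than that of all genes. In limma with a pseudocount of 0.1, 1 WT-only gene was called at day 10 (0.324%, against 0.538% of all genes), and with no filter on low values 1 for the mean (0.31%, against 0.05%).

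At an unadjusted p under 0.05 for the mean of both days, limma placed 9 KO-only genes higher in KO (10.5%, against 2.28% of all genes) and 3 lower (3.49%, against 4.92%). For WT-only genes it placed 4 higher (1.29%) and 22 lower (7.12%) against the same 2.28% and 4.92% of all genes. For this mean each class was above the background in the direction of its peak and below it in the other. On single days this held for WT-only genes at day 0, but not for KO-only genes at day 0 nor for either class at day 10. Without the 2 libraries rich in olfactory receptor reads, 14 KO-only genes were higher (16.7%, against 7.06% of all genes) and 7 lower (8.33%, against 7.79%), so the lower share moved to just above the background. WT-only genes then had 9 higher (2.94%) and 38 lower (12.4%), and without KO day 0 replicate 1 alone the KO-only counts were 12 higher (14%, against 6.93%) and 8 lower (9.30%, against 8.55%). These shares describe members that passed the filter on low values and carry no test.

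**Figure D2:**
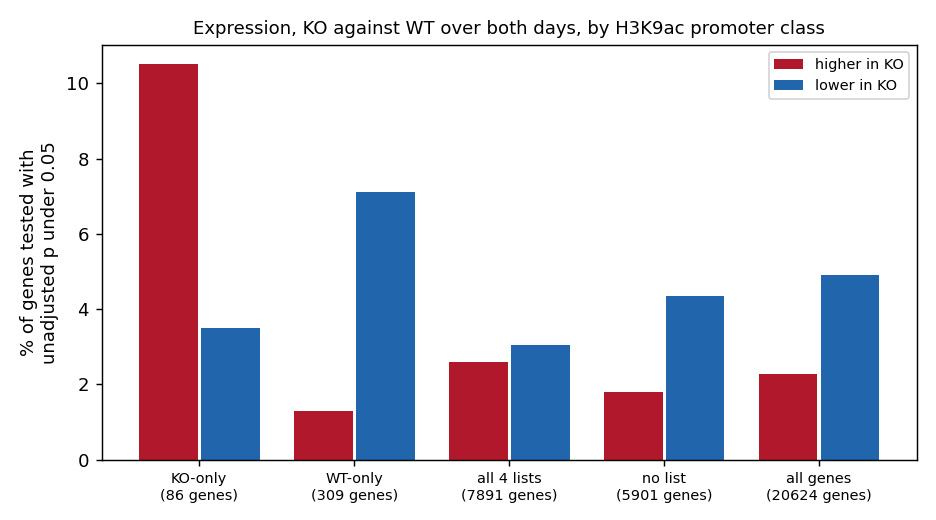
Percentage of genes tested that were higher (left bar of each pair) or lower (right bar) in KO than in WT at an unadjusted limma p under 0.05, for the mean of both days, by promoter class. KO-only genes have 10.5% higher and 3.49% lower, WT-only genes 1.29% and 7.12%, and all genes 2.28% and 4.92%.

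At day 0, 7 KO-only genes were higher (8.14%, against 1.99% of all genes) and 3 lower (3.49%, against 1.83%), while 3 WT-only genes were higher (0.971%) and 15 lower (4.85%). At day 10, 7 KO-only genes were higher (8.14%, against 2.06% of all genes) and 10 lower (11.6%, against 9.88%), while 9 WT-only genes were higher (2.91%) and 38 lower (12.3%). The KO-only share of lower genes was thus above the background on both days, and so was the WT-only share of higher genes at day 10. The median log2 difference was 0.32 for KO-only and 0.03 for WT-only genes at day 0, against 0.17 for all genes. At day 10 it was -0.27 and -0.41, against -0.26 for all genes. Without KO day 0 replicate 1 the day 0 medians were 0.048 for KO-only and -0.188 for WT-only genes, and without WT day 10 replicate 3 the KO-only day 10 median was 0.103. A log2 difference above 0 was found for 60 of 86 KO-only genes at day 0 and 29 of 86 at day 10. For WT-only genes these counts were 160 and 103 of 309, and for all genes the shares were 62.5% and 34.9%. Genes with a peak in no list, which are mostly low in RNA, had a median of -1.22 at day 10.

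The level of the members lay between those of the always-marked and the never-marked genes. Levels were divided by the genomic span of each gene, introns included, and not by transcript length. On this scale, KO-only genes had a median of 2.35 scaled reads per kb in KO day 0 and 2.83 in WT day 0, and WT-only genes had 1.97 and 2.47. Genes marked in all 4 lists had 20.5 in KO day 0 and 19.9 in WT day 0, and genes marked in none had 0.699 and 0.322. At day 10 the medians were 1.34 in KO and 1.78 in WT for KO-only genes, and 1.46 and 1.94 for WT-only genes. Both classes thus consisted mostly of genes with low RNA in both lines.

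**Figure D3:**
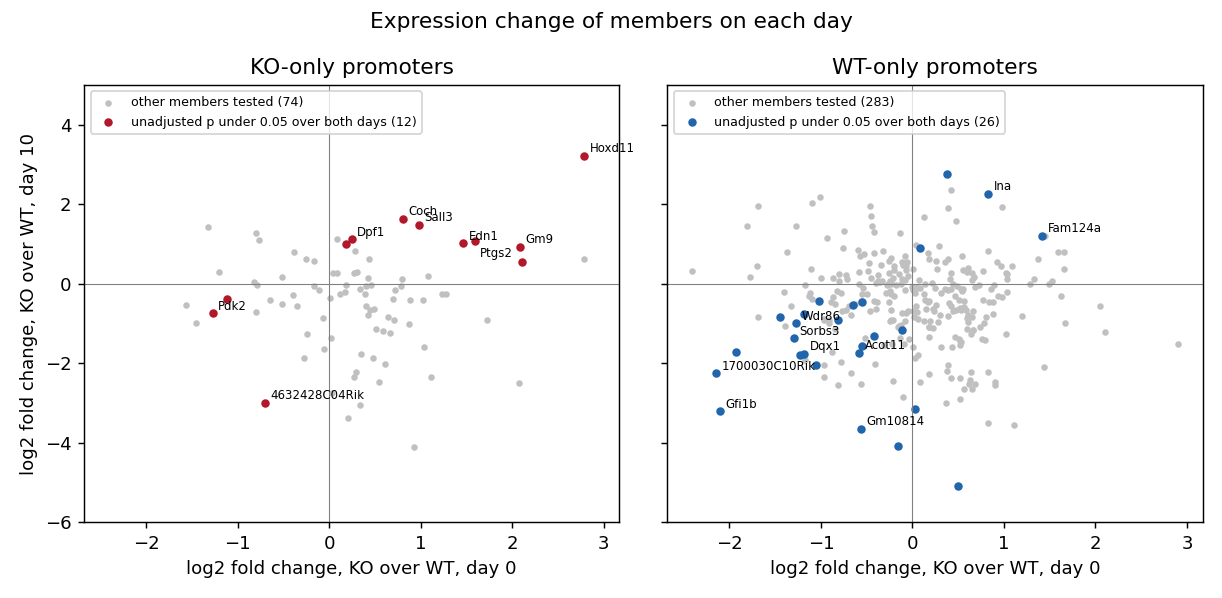
Log2 fold change of KO over WT at day 0 (x axis) and day 10 (y axis) for 86 KO-only genes (left) and 309 WT-only genes (right); coloured points have an unadjusted limma p under 0.05 for the mean of both days. The 9 KO-only genes placed higher lie to the upper right, and most of the 22 WT-only genes placed lower lie to the lower left.

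A stricter description asks for libraries whose scaled reads do not overlap on either day. Since the scaled total includes Rn45s, which differs between libraries, a narrow separation at day 0 can come from the scaling. Every KO library was above every WT library on both days for 2 KO-only genes, Hoxd11 and Dpf1 (2.33% of those tested, against 0.218% of all genes), and for 1 WT-only gene, Fam124a (0.324%). The day 0 separations of Dpf1 and Fam124a depend on Rn45s being part of the scaled total. The share over all genes was counted on the same scale. Every KO library was below every WT library on both days for 0 KO-only genes and for 5 WT-only genes (1.62%, against 0.897% of all genes), namely 1700030C10Rik, Sorbs3, Gfi1b, Wdr86 and Adcy3. Of these, Dpf1, Fam124a, Wdr86 and Adcy3, as well as Sall3, Edn1, Coch, Uchl1, Acot11, Adm, Matn3 and Rarg below, were singled out after their values had been seen.

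Hoxd11, a posterior Hox gene of the limb and trunk (mm9 chr2:74517615-74525073, plus strand), had 28.02, 34.19 and 34.61 scaled reads in KO day 0, against 14.15, 0 and 6.26 in WT day 0. The day 10 libraries gave 31.73, 112.26 and 110.56 in KO, against 0, 26.77 and 17.25 in WT. All KO libraries were above all WT libraries on both days, and 1 WT library of each day was at 0. The mean difference over both days was 3.01 on the log2 scale (SE 0.869, limma adjusted p = 0.494). Of 39 Hox genes tested, 35 had a mean difference above 0 (median 0.83), and 32 at day 10 (median 1.16); Hoxd11 was KO-only and Hoxa3 WT-only, and limma called none of the 39. The KO peaks of the Hoxd11 promoter had 2.32-fold and 2.31-fold enrichment and a -log10 q of 0.07 in both lists. They lay 125 and 984 bases from the start and did not overlap each other, and a WT peak lay 2371 bases away at day 0.

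Dpf1, a subunit of the neuronal BAF chromatin remodelling complex (mm9 chr7:30089024-30102605, plus strand), had 370.50, 361.79 and 370.03 scaled reads in KO day 0, against 251.11, 350.72 and 335.87 in WT day 0. Its day 10 values were 178.51, 249.16 and 167.20 in KO, against 101.90, 121.48 and 57.49 in WT. The day 0 groups were only just apart, and the day 10 groups were well apart. At day 0, KO replicates 2 and 3 held little Rn45s and WT replicate 2 held much, so the narrow day 0 separation depends on Rn45s being part of the scaled total. Its mean difference was 0.68 (SE 0.239, limma adjusted p = 0.59), and DESeq2 called the day 10 difference (1.14, adjusted p = 0.0361). The KO peaks had 2.62-fold and 2.85-fold enrichment, and no WT peak was closer than 3475 bases.

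The other KO-only genes placed higher at an unadjusted p under 0.05 included the zinc finger factor Sall3, the vasoconstrictor peptide gene Edn1, the cyclooxygenase Ptgs2, the inner ear matrix gene Coch, the neuronal ubiquitin hydrolase Uchl1 and the SoxB factor Sox21. Sall3 had 230.08, 232.73 and 329.00 scaled reads in KO day 10, against 61.76, 152.36 and 83.35 in WT day 10, and the ranges did not overlap. At day 0 it had 205.49, 265.72 and 262.48 in KO, against 190.99, 45.93 and 209.77 in WT, so the ranges overlapped narrowly. Its mean difference was 1.23 on the log2 scale (SE 0.368, limma adjusted p = 0.503). Edn1 had 18.68, 35.17 and 38.32 in KO day 0, against 7.07, 8.35 and 16.51 in WT day 0, and its ranges overlapped at day 10 (47.60 to 88.99 in KO, 25.87 to 52.49 in WT). Coch had 103.14, 161.54 and 148.32 in KO day 10, against 24.70, 55.59 and 57.49 in WT day 10, without overlap. Ptgs2 and Uchl1 had mean differences of 1.33 (SE 0.495) and 0.59 (SE 0.269), with limma adjusted p-values of 0.608 and 0.69. Reads of Ptgs2 and its antisense gene could not be separated, since the strand of counting is not given. In the lower direction the 3 KO-only genes were the noncoding 4632428C04Rik (-1.85, SE 0.59), the pyruvate dehydrogenase kinase Pdk2 (-1.01, SE 0.401) and the endocytic adaptor Pacsin1 (-0.75, SE 0.326).

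**Figure D4:**
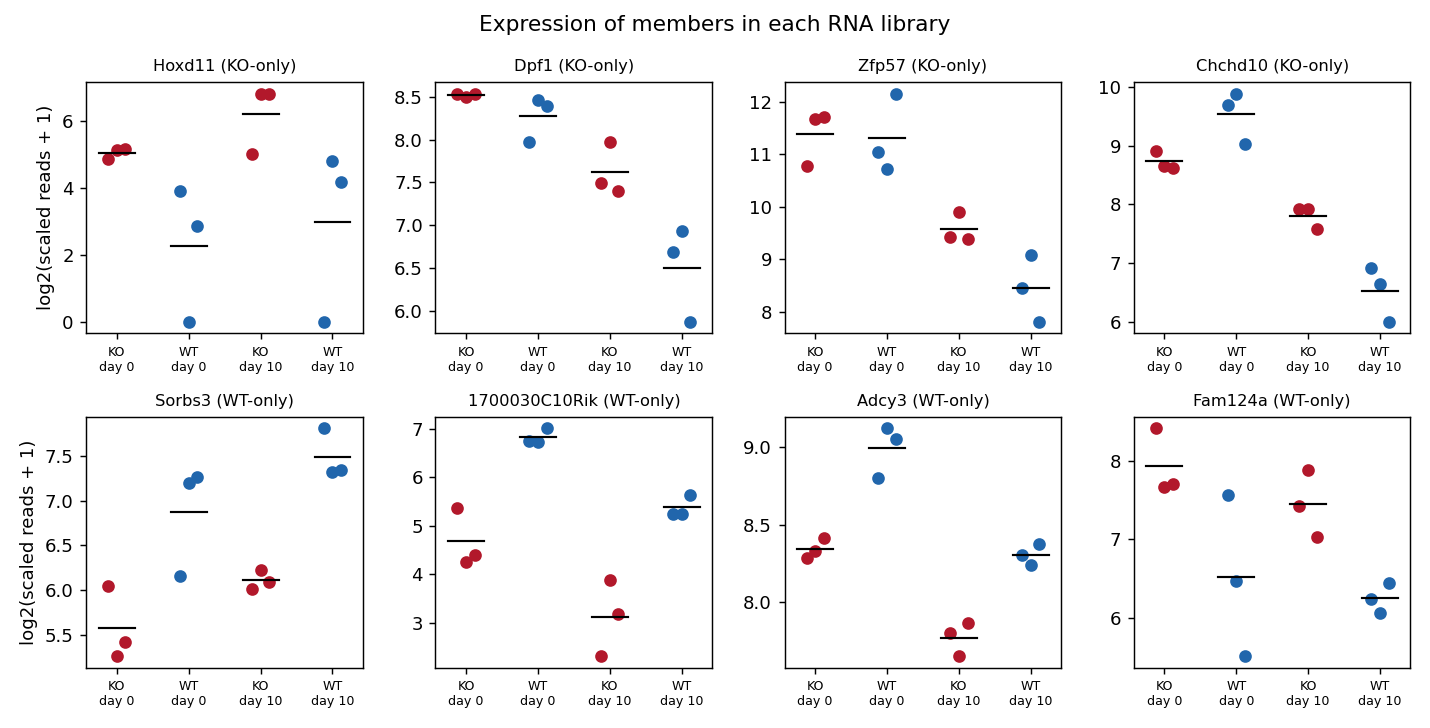
Expression of 8 members in each RNA library as log2(scaled reads + 1) (y axis), with KO left of WT for each day; points are libraries and bars are means of 3. Hoxd11 and Dpf1 are higher in KO on both days, Zfp57 at day 10 only, Chchd10 lower at day 0 and higher at day 10, Sorbs3, 1700030C10Rik and Adcy3 lower on both days, and Fam124a higher on both days.

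Among WT-only genes the lowest unadjusted p was that of the noncoding 1700030C10Rik (mm9 chr12:20810253-20821640, minus strand). It had 40.47, 18.24 and 20.19 scaled reads in KO day 0, against 106.10, 104.38 and 127.52 in WT day 0. In differentiated cells it had 3.97, 13.69 and 8.09 in KO, against 37.05, 37.06 and 48.86 in WT. The groups were far apart on both days, and the mean difference was -2.20 on the log2 scale (SE 0.417, limma adjusted p = 0.307). Its WT peaks had 2.51-fold and 2.80-fold enrichment, and no KO peak was closer than 85977 bases.

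Sorbs3 encodes vinexin, an adaptor at cell adhesions (mm9 chr14:70580275-70607478, minus strand). It had 65.38, 37.45 and 42.03 scaled reads in KO day 0, against 70.74, 146.13 and 152.56 in WT day 0. At day 10 it had 63.47, 73.93 and 67.42 in KO, against 222.33, 158.54 and 160.96 in WT. The day 0 groups were separated narrowly and the day 10 groups widely, and the mean difference was -1.33 (SE 0.296, limma adjusted p = 0.374). Its WT peaks, of 2.42-fold and 2.38-fold enrichment, did not overlap each other, and a KO peak lay 1207 bases from the start at day 10.

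Adcy3, an adenylyl cyclase (mm9 chr12:4133397-4213524, plus strand), had 311.34, 321.41 and 339.54 scaled reads in KO day 0, against 445.64, 555.31 and 529.70 in WT day 0. The day 10 libraries gave 222.14, 199.88 and 231.92 in KO, against 314.97, 300.61 and 330.54 in WT. The libraries of each group lay close together, and the mean difference was -0.59 (SE 0.179, limma adjusted p = 0.503). WT peaks covered its start on both days, with 2.64-fold and 2.61-fold enrichment. Wdr86, a WD repeat gene, had 28.02, 29.63 and 32.96 in KO day 0, against 53.05, 87.68 and 87.67 in WT day 0, and a mean difference of -1.13 (SE 0.34). Its day 10 values were 39.67, 109.52 and 105.17 in KO, against 120.43, 144.13 and 212.70 in WT. Gfi1b, a repressor of blood cell development, was near 0: it had 0, 2.93 and 3.30 in KO day 0, against 14.15, 16.70 and 3.98 in WT day 0. In differentiated cells it had 0, 0 and 0 in KO, against 6.18, 6.18 and 14.37 in WT.

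Other WT-only genes placed lower included the acyl-CoA thioesterase Acot11 (-1.16, SE 0.332), the peptide hormone gene Adm (-1.82, SE 0.564), the cartilage matrix gene Matn3 (-0.87, SE 0.285) and the T-box factors Tbx18 (-1.56, SE 0.576) and Tbr1. The lowest limma adjusted p among these genes was 0.48, that of Acot11. Tbx18 and Tbr1 were low genes whose difference came at day 10. Tbx18 had 0, 5.48 and 2.70 scaled reads in KO day 10, against 27.79, 14.41 and 37.37 in WT day 10, and Tbr1 had 0, 0 and 0, against 27.79, 4.12 and 31.62. At day 0 the ranges of both genes overlapped between the lines.

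The 4 WT-only genes placed higher went against their peak class. Fam124a had 339.36, 202.55 and 207.27 scaled reads in KO day 0, against 187.45, 87.68 and 44.40 in WT day 0. At day 10 it had 170.57, 235.47 and 129.44 in KO, against 74.11, 65.89 and 86.23 in WT. In scaled reads every KO library was above every WT library on each day, and the mean difference was 1.31 (SE 0.337, limma adjusted p = 0.423). The day 0 separation was narrow and depends on Rn45s being part of the scaled total. At day 0, WT replicate 1 held 18.076% Rn45s, and KO replicates 2 and 3 held 0.115% and 0.118%. The WT peaks of Fam124a covered the start but were weak, with 2.25-fold and 2.39-fold enrichment. Ina, a neuronal intermediate filament gene, had 249.91, 312.14 and 175.29 in KO day 10, against 49.41, 63.83 and 37.37 in WT day 10, and overlapped at day 0. Rarg, a retinoic acid receptor, had 1078.98, 1311.52 and 1202.73 in KO day 10, against 679.34, 623.87 and 606.47 in WT day 10. DESeq2 called the day 10 differences of Ina (2.36, adjusted p = 0.0176) and Rarg (0.99, adjusted p = 0.0361). The fourth was the melanocortin receptor gene Mc5r, at 7.93 to 10.95 in KO day 10 and 0 to 3.09 in WT day 10. These Mc5r values rest on very few reads. At day 10, 1 read is worth 2.6967 to 3.9668 scaled reads in KO and 2.059 to 3.0879 in WT.

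Chchd10, the strongest KO-only promoter, had its KO libraries below WT at day 0 and above WT at day 10. It had 479.47, 403.15 and 393.93 scaled reads in KO day 0, against 824.07, 943.60 and 521.45 in WT day 0. The day 10 libraries gave 241.98, 240.95 and 191.47 in KO, against 120.43, 98.83 and 63.23 in WT. In scaled reads the groups were apart on both days, lower in KO at day 0 (-0.80, SE 0.328, limma adjusted p = 0.993) and higher in KO at day 10 (1.29, SE 0.328, limma adjusted p = 0.206). Such opposite separations on the 2 days were found for 2 of 86 KO-only genes (2.33%), against 0.519% of all genes. For Chchd10 the day 0 separation depends on Rn45s being part of the scaled total. At day 0, KO replicate 1 held 21.928% Rn45s and WT replicate 3 held 0.129%. The KO peak itself was of about the same strength on both days.

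The line carries mus and cas alleles, and allelic reads were counted by the authors. At least 10 allelic reads in every library were available for 16 KO-only and 51 WT-only genes. Of these, Chchd10, Slx4, Lama1, Tfcp2l1, Dppa3 and Rarg gave group means of 97.2% to 100% mus reads, so they say nothing of the cas allele. Rnf220, Mcc, Nt5c2 and Phgdh, on chromosomes 4, 18, 19 and 3, likewise had group means of 97.0% to 100%. Whether the cells hold a cas copy of such genes or leave it silent was not tested. Group means between 10% and 90% on both days were found for 6 KO-only and 19 WT-only genes. Among them, the KO-only gene Uchl1 had 43.2% ± 1.6 mus reads in KO day 0 and 32.6% ± 8.6 in WT day 0 (SD, n = 3 each). Its day 10 values were 36.7% ± 5.4 in KO and 40.0% ± 6.3 in WT. Dcps, a decapping enzyme gene and also KO-only, had 54.2% ± 6.0 in KO day 0 and 65.5% ± 17.6 in WT day 0, and 52.2% ± 6.6 in KO day 10 and 47.7% ± 16.3 in WT day 10. The ranges of Dcps overlapped on both days, and those of Uchl1 were apart at day 0 (41.4% to 44.3% in KO, 22.8% to 38.9% in WT) and overlapped at day 10. Pdgfrl, a gene for a receptor-like protein, had 49.5% ± 14.6 mus reads in KO day 0 and 28.8% ± 8.4 in WT day 0, and 58.2% ± 15.2 in KO day 10 and 37.5% ± 1.8 in WT day 10. Its libraries overlapped at day 0 and were apart at day 10. Ica1 was apart at day 0 (32.9% ± 6.5 in KO, 20.3% ± 8.5 in WT) and overlapped at day 10, and Thsd7a and Fbxl2 overlapped on both days. Of the 19 WT-only genes, Ephb1 was apart at day 0 (49.5% to 56.4% in KO, 61.5% to 66.7% in WT), and so was Mcam (9.1% to 21.7% in KO, 23.4% to 26.9% in WT). Both overlapped at day 10, and the other WT-only genes overlapped on both days. Allelic separations were thus seen in both classes. Their share over all genes was not computed, so they cannot be read as a trait of the members or an effect of the knockout. These allelic shares carry no test.

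The members lay on all chromosomes from 1 to 19 and on X. The X chromosome held 2 KO-only (2.15%) and 9 WT-only genes (2.79%), against 4.37% of all genes. Protein-coding genes made up 86.02% of KO-only and 88.85% of WT-only genes, against 85.85% of all genes. The 45S ribosomal RNA gene Rn45s was itself WT-only, with the weakest peaks of that class (1.92-fold and 1.65-fold), and a KO peak lay 1022 bases from its start.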

How the data were processed

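RNA libraries came from RNeasy extraction with Ribo-Zero depletion, and H3K9ac ChIP used the antibody ab4441, per the labels. The submitters' processing notes name TopHat and HOMER for RNA, Novoalign and MACS2 for ChIP, and the build mm9; versions and the ChIP control are not given in the sources used here. The deposited gene table gives a signal (reads brought to one total per library), whose low values were whole multiples of 1 read in 100% of cases (tolerance 0.01 read plus 0.005 scaled reads). The design assumed such values, so limma was the main test. A deposited allele table holds counts of mus and cas reads. Peak lists, called per sample, hold the fold ratio over control, the -log10 p-value and the -log10 q-value deposited by the authors. No peak had a -log10 p under 2.0, so weaker ones cannot be seen.

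Promoter overlap needed 1 base. Expression was tested with limma 3.58.1 (trend, robust; R 4.3.3) on log2(value + 1) over 12 libraries with Benjamini-Hochberg adjustment at 0.05, for genes above 1 in at least 3 libraries. Fold changes on this scale understate low genes. edgeR 4.0.16 and DESeq2 1.42.0 were run on recovered reads, and the limma step was tested on simulated data. The labels give each RNA sample its own donor number; cultures are not described, so p-values measure the spread between these samples. Named genes are Ehmt2, Ehmt1, the 10 strongest members by their weaker peak, the 5 highest and 5 lowest by expression, members of the gene lists and those near the 1 kb limit; others are said to be chosen later. Members and lists were chosen with earlier results of these data known. H3K9me2 samples and inputs were not analysed here; 2 inputs have labels that contradict each other on the day.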

Additional observations from a re-analysis of the deposited data

Results flagged for a closer look

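In 6 members all KO libraries lay on one side of all WT libraries at day 0 and on the other side at day 10. These were 2 of 86 KO-only genes tested (2.33%) and 4 of 309 WT-only genes (1.29%), against 0.519% of all 20624 genes, and the count carries no test. None of these differences between the days passed limma's interaction test after adjustment over all genes. The day 10 difference minus the day 0 difference was 2.09 on the log2 scale for the KO-only gene Chchd10 (SE 0.464, limma adjusted p = 0.547) and -4.58 for the KO-only serine protease gene Prss48 (SE 1.351, limma adjusted p = 0.547). Prss48 was near 0, with 15.57, 6.84 and 9.07 scaled reads in KO day 0, against 3.54, 0 and 2.85 in WT day 0.

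Among WT-only genes it was 3.64 for BC029214 (limma adjusted p = 0.56), -1.13 for the vesicle GTPase gene Rab3b (limma adjusted p = 0.563), -2.20 for the calcium channel subunit gene Cacnb2 (limma adjusted p = 0.547) and 3.13 for the calcium-binding gene S100a16 (limma adjusted p = 0.547). S100a16 had 43.59, 21.82 and 21.84 scaled reads in KO day 0, against 49.52, 91.86 and 47.25 in WT day 0. At day 10 it had 31.73, 30.12 and 37.75 in KO, against 15.44, 4.12 and 5.75 in WT. For Chchd10 and S100a16 the day 0 separation depends on Rn45s being part of the scaled total. KO day 0 replicate 1 held 21.928% Rn45s and WT day 0 replicate 3 held 0.129%.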

How the results depend on the processing

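Of the single-gene values recomputed, which for most genes cover only the mean of both days, 916 kept their direction and side of the threshold, and 8 passed the threshold that the main value missed. On single days DESeq2 also called genes not counted there, such as Dpf1, Ina, Rarg and Acot11 at day 10 and 1700030C10Rik at day 0. KO-only counts were 60 with peaks of at least 4-fold enrichment, 52 with no WT peak within 5 kb and 0 with own peaks at a -log10 q of at least 2, the last chosen after seeing the data; leaving out 1 list, which removes a condition, gave 240 to 885. WT-only counts were 42, 201 and 1 in the same order, 38 with a -log10 q of at least 2 throughout, and 495 to 2021 leaving out 1 list. DESeq2 called 2 KO-only members at day 10 and 1 for the mean of both days; it called 1, 8 and 3 WT-only members at day 0, at day 10 and for the mean, where it called 0.0949%, 3.25% and 0.582% of all genes. With a pseudocount of 0.1 limma called 1 WT-only gene at day 10 (0.538% of all genes called), and with no filter on low values 1 for the mean (0.05% of all genes called). Without the 2 libraries rich in olfactory reads the day 0 medians were 0.048 (KO-only) and -0.19 (WT-only). The counts at an unadjusted p under 0.05 were then 14 higher and 7 lower for KO-only, and 9 and 38 for WT-only; 5 KO-only genes were lower with a pseudocount of 0.1 or no filter.

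Leaving out 1 RNA library at a time, members called at an adjusted p under 0.05 stayed at 0. KO-only medians ran over 0.048 to 0.384 at day 0, -0.676 to 0.103 at day 10 and -0.226 to 0.147 for the mean; WT-only medians over -0.188 to 0.116, -0.522 to -0.176 and -0.289 to -0.049. KO-only genes at an unadjusted p under 0.05 numbered 6 to 12 higher and 1 to 8 lower (6.98% to 14.3% and 1.16% to 9.3%), and WT-only genes 2 to 10 and 17 to 39 (0.654% to 3.25% and 5.52% to 12.7%). Over all genes the same fits gave 1.22% to 6.93% higher and 2.76% to 8.55% lower.

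With the replicate number as a block, limma called 0 members for the mean of both days. Deviations of same-numbered libraries correlated at 0.427, -0.11 and 0.579 at day 0 and at -0.004, 0.096 and 0 at day 10. At day 0, replicate 1 was shallow in both lines and replicate 3 deep in both. Depth and pairing therefore cannot be told apart there, and the values do not settle whether the numbers pair the samples. The depth limits low genes: 1 read is worth 0.2846 to 4.1752 scaled reads.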
